A study of Populus tremula x Populus tremuloides with 22 samples.

Results

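The 6 genes described here are poplar MYB transcription factors linked to wood formation, chosen by identifier from a fixed list out of the 34699 genes counted in hybrid aspen stems. They were chosen with earlier results of these data known. The list names 4 as MYB46/83 type, which are MYB2 (Potri.001G258700), MYB3 (Potri.001G267300), MYB20 (Potri.009G061500) and MYB21 (Potri.009G053900). It names 2 as MYB103 type, which are Potri.001G099800 and Potri.003G132000. No gene names come with the identifiers in the files, and these names were not checked against an annotation. All 6 genes passed the filter on low counts and were tested.

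Hybrid aspen (Populus tremula x Populus tremuloides) was grown in a greenhouse, and stem internodes were taken at an age of 3 weeks. The 9 LBD11-OE libraries came from trees overexpressing Arabidopsis LBD11, as lines LBD11-OE-1, LBD11-OE-2 and LBD11-OE-14 with 3 libraries each. The 8 LBD4-OE libraries came from trees overexpressing Arabidopsis LBD4, as lines LBD4-OE-11 with 3, LBD4-OE-14 with 2 and LBD4-OE-17 with 3 libraries. The 5 WT libraries came from wild type trees. Overexpression is described as specific to xylem, and the promoter is not named in the labels. LBD4 and LBD11 are LATERAL ORGAN BOUNDARIES DOMAIN transcription factors. The levels of the Arabidopsis transgenes were not analysed here. Libraries of a line share that line, and nothing says that they came from separate trees, so the p-values reflect differences among these samples that may be technical.

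The wood MYB genes encode R2R3-type transcription factors. In Arabidopsis, MYB46 and MYB83 are redundant switches that NAC factors of the SND1/VND group turn on directly in fibres and vessels, and that in turn activate genes for cellulose, xylan and lignin of the secondary wall. In poplar, MYB2 and MYB21 are one duplicate pair of this type, and MYB3 and MYB20 are the other. Arabidopsis MYB103 is needed for the syringyl form of lignin, through expression of ferulate 5-hydroxylase.

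Total counts per library ran from 23437445 to 41969957. On principal component 2 of all genes, LBD4-OE-11 replicate 1 (-41.3) and WT replicate 3 (-73.6) stood away from the others. A set of 21 genes also split the libraries into 7 and 15 without regard to construct: Potri.014G186524 lay at 0.135 to 0.501 CPM (counts scaled to library size) in WT replicate 3 and all libraries of LBD4-OE-11 and LBD11-OE-2, and at 9.58 to 33.7 CPM in the other 15. These are called the smaller and the larger library set. The 5 listed cellulose synthases of the secondary wall, which mark xylem forming such walls, summed to 4580 to 7101 CPM in LBD11-OE, 4000 to 5466 CPM in LBD4-OE and 3539 to 4845 CPM in WT, so RNA of these genes was read in all groups. In RNA of whole internodes, fewer cells of a type and less RNA per cell cannot be told apart.

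The MYB103-type genes were the most abundant of the 6 and the MYB46/83-type genes other than Potri.009G053900 were read by few counts. Levels between genes were set per kb of the genomic span in the files, which includes introns. By CPM per kb, Potri.003G132000 came first, with means of 27.2 ± 6.601 in LBD11-OE, 29.7 ± 3.80 in LBD4-OE and 30.6 ± 1.61 in WT (SD, n = 9, 8 and 5). Potri.001G099800 followed with 13.5 ± 1.27 in LBD11-OE, 13.9 ± 1.43 in LBD4-OE and 17.4 ± 0.664 in WT.

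Potri.009G053900 was the highest of the MYB46/83 type, at 5.11 ± 0.927 CPM per kb in LBD11-OE, 6.15 ± 0.588 in LBD4-OE and 6.27 ± 0.427 in WT. Potri.001G258700 averaged 1.91 ± 0.417 in LBD11-OE, 1.66 ± 0.351 in LBD4-OE and 1.68 ± 0.361 in WT. Potri.009G061500 averaged 0.948 ± 0.241 in LBD11-OE, 1.11 ± 0.261 in LBD4-OE and 1.43 ± 0.119 in WT. These 2 neighbours in the order lay within their spread of each other in WT, and in LBD11-OE their means were farther apart than either SD. Potri.001G267300 was the lowest, at 0.725 ± 0.151 in LBD11-OE, 0.507 ± 0.179 in LBD4-OE and 0.541 ± 0.138 in WT. Its deposited counts were 29 to 108 per library, against 1261 to 2926 for Potri.003G132000, so its values carry more counting error.

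**Figure D1:**
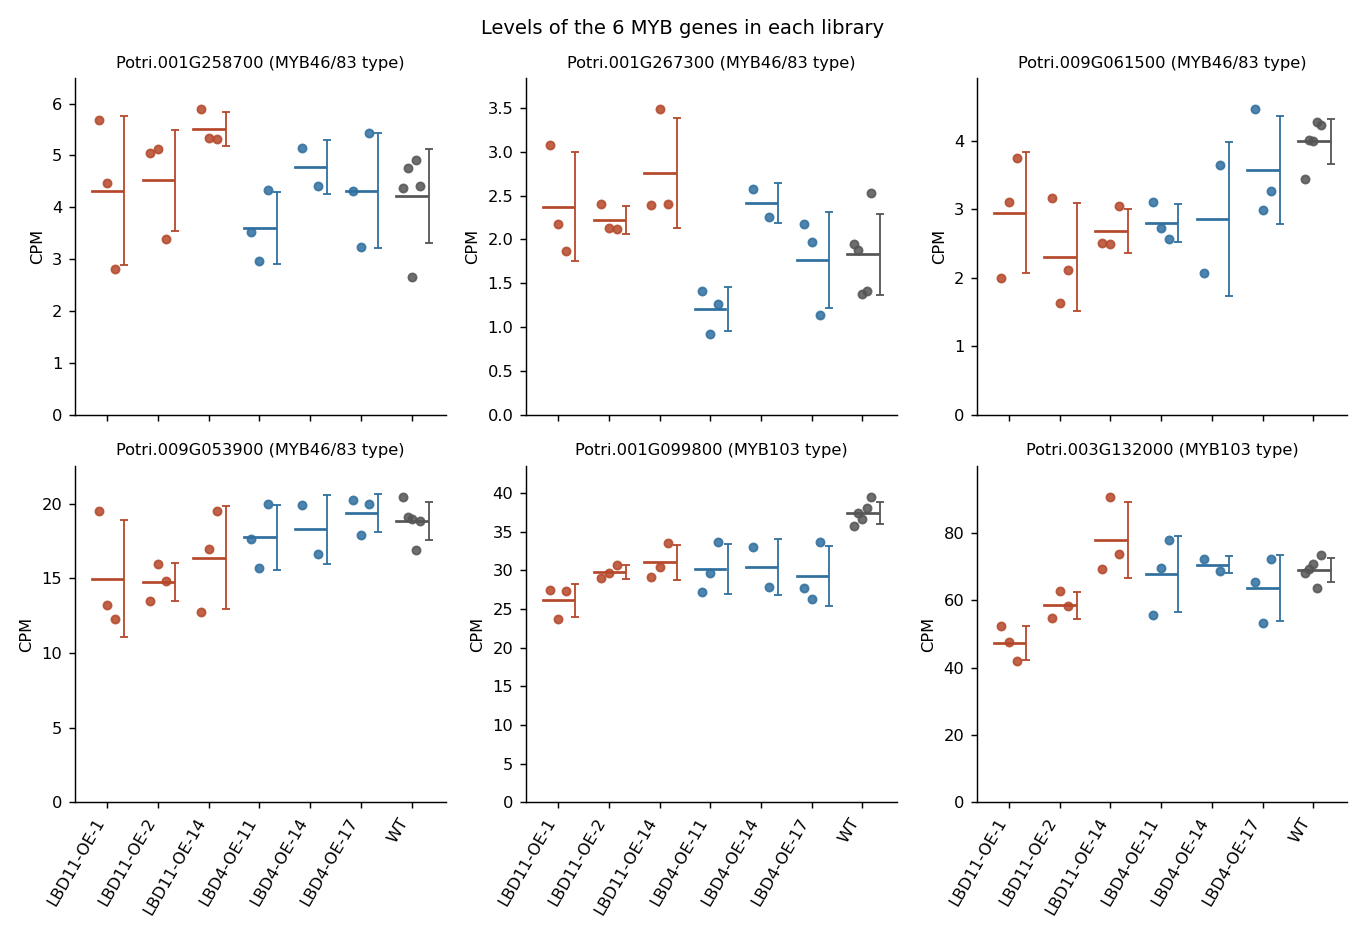
Level of each of the 6 genes in CPM in each of the 22 libraries, by line, with the mean (bar) and SD of each line and of WT; each panel starts at 0 and has its own scale. Potri.001G099800 lies below the WT libraries in all 17 overexpressing libraries, and Potri.003G132000 differs among the LBD11-OE lines.

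Setting LBD11-OE against WT asks how the wood MYB genes stood when LBD11 was overexpressed in the xylem. Of the 6 genes, 3 were lower in LBD11-OE and none was higher at an adjusted p under 0.05 (edgeR quasi-likelihood test, Benjamini-Hochberg over 25626 genes). Without adjustment none was higher either (p under 0.05), nor by DESeq2 or limma voom. Of all genes tested 32.3% were called, 16.1% as higher and 16.3% as lower. The 6 genes are too few for 3 of 6 to be read as more than that share. The 3 genes were Potri.009G061500 and Potri.009G053900 of the MYB46/83 type and Potri.001G099800 of the MYB103 type.

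In LBD4-OE against WT, 1 of the 6 genes was lower, Potri.001G099800, and none was higher, also without adjustment (p under 0.05) or by DESeq2 or limma voom. Of all genes tested 4.28% were called in this comparison, 2.71% as higher and 1.57% as lower. Both comparisons share the WT libraries. Between the constructs, LBD11-OE against LBD4-OE, 1 of 6 genes was lower, Potri.009G053900, and none was higher, against 17% of all genes called, 8.08% as higher and 8.88% as lower. At an unadjusted p under 0.05, Potri.001G267300 was higher in that comparison, and DESeq2 and limma voom called it higher.

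Taken singly against WT in the fit of 26271 genes, lines LBD11-OE-1 and LBD11-OE-2 each had 2 of the 6 genes lower, and lines LBD11-OE-14 and LBD4-OE-17 had 1. Lines LBD4-OE-11 and LBD4-OE-14 had none lower by edgeR, and no line had any of the 6 higher by edgeR, DESeq2 or limma voom. At an unadjusted p under 0.05, line LBD4-OE-11 had 3 of the 6 lower and line LBD4-OE-14 had 1. Beyond its adjusted calls, LBD11-OE-1 then also had Potri.009G053900 lower (edgeR unadjusted p = 0.0269), and LBD11-OE-14 had Potri.009G061500 lower (0.0211). LBD11-OE-2 also had Potri.009G053900 (0.0188) and Potri.003G132000 (0.0436) lower. Potri.001G267300 was higher in LBD11-OE-14 (unadjusted p = 0.0229). Without WT replicate 5 that value passed (0.73, edgeR adjusted p = 0.0354). The share of all genes at an unadjusted p under 0.05 was not computed. At an adjusted p under 0.05, 10.7% of all genes tested were lower and 10.8% higher in LBD11-OE-1. In LBD11-OE-2, 7.72% were lower and 8.63% higher, and in LBD11-OE-14, 12.7% were lower and 14% higher. The shares were 0.75% lower and 1.19% higher in LBD4-OE-11, 0.206% lower and 0.506% higher in LBD4-OE-14, and 0.99% lower and 1.63% higher in LBD4-OE-17. Potri.001G099800 made up the count in LBD11-OE-14 and LBD4-OE-17 and was among both genes in the other lines with calls.

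**Figure D2:**
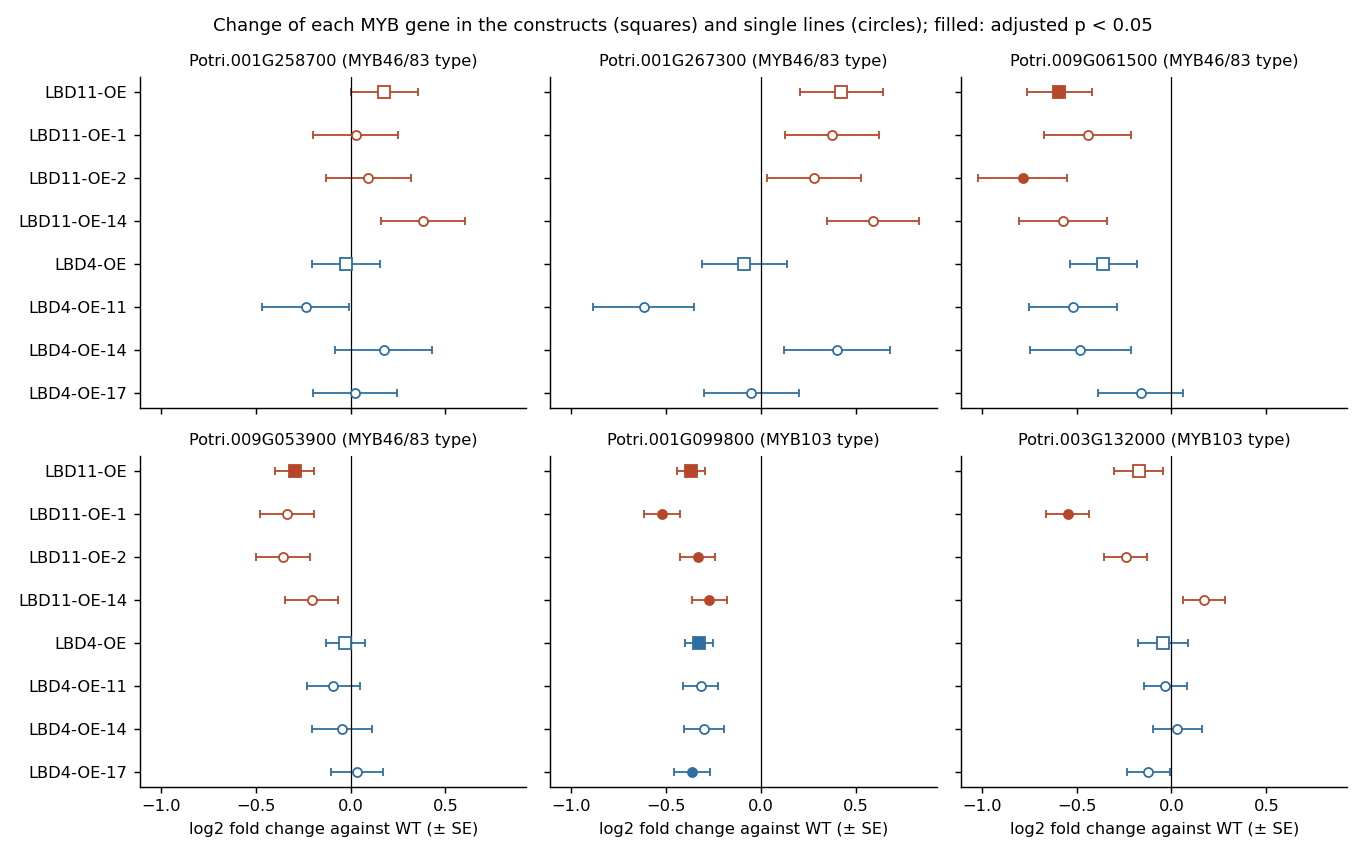
Log2 fold change against WT of each gene, with its standard error, for both constructs (squares, fit of 3 groups) and the 6 lines (circles, fit of 7 groups); filled symbols have an adjusted p under 0.05 (edgeR). Potri.001G099800 lies left of 0 for both constructs and all 6 lines, while Potri.003G132000 lies left of 0 in LBD11-OE-1 (-0.55) and right of it in LBD11-OE-14 (0.17).

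Potri.001G099800, 1 of the 2 MYB103-type genes, lies on the forward strand of chromosome 1 at 7968192 to 7970344. It was lower in both constructs. Its libraries measured 27.4, 23.7 and 27.3 CPM in LBD11-OE-1, 29.0, 29.6 and 30.8 CPM in LBD11-OE-2, and 29.2, 30.4 and 33.6 CPM in LBD11-OE-14. In LBD4-OE they measured 27.3, 29.6 and 33.6 CPM in line 11, 33.0 and 27.8 CPM in line 14, and 27.8, 26.3 and 33.6 CPM in line 17. The WT libraries measured 35.7, 37.4, 36.7, 38.0 and 39.5 CPM. Each of the 17 overexpressing libraries was thus below the lowest WT library, as were all 17 for 0.511% of the genes tested. All LBD11-OE libraries were below WT for 5.65% of the genes tested, and all LBD4-OE libraries for 0.866%.

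The mean of Potri.001G099800 was 29.0 ± 2.74 CPM in LBD11-OE, against 37.5 ± 1.43 CPM in WT, or a log2 change of -0.37 ± 0.07 (SE, edgeR adjusted p = 0.000401). It was 29.9 ± 3.09 CPM in LBD4-OE against the same WT value, or a log2 change of -0.33 ± 0.07 (edgeR adjusted p = 0.0166). The difference between the constructs did not pass the test, at -0.04 on the log2 scale for LBD11-OE against LBD4-OE with a 95% interval of -0.17 to 0.08 (edgeR adjusted p = 0.712).

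The direction of Potri.001G099800 was shared by all 6 lines, and it passed the test in 4. LBD11-OE-1 stood lowest, at 26.1 ± 2.12 CPM (n = 3) and a log2 change against WT of -0.52 ± 0.09 (edgeR adjusted p = 0.000476). The gene was lower by the same test in LBD11-OE-2 (-0.33, adjusted p = 0.0170), LBD11-OE-14 (-0.27, adjusted p = 0.0328) and LBD4-OE-17 (-0.36, adjusted p = 0.0348). In LBD4-OE-11 the log2 fold change was -0.32 (edgeR adjusted p = 0.0750, DESeq2 adjusted p = 0.0386), and in LBD4-OE-14, with 2 libraries, it was -0.30 (edgeR adjusted p = 0.177). No joint difference among the lines of a construct passed the test in this gene (edgeR adjusted p = 0.476 in LBD11-OE and 0.949 in LBD4-OE).

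The LBD4-OE call of Potri.001G099800 held in 36 of 41 alternatives. It was lost with lines as a random block, which allows for libraries sharing a line (limma voom adjusted p = 0.0610), without WT replicate 5 (edgeR adjusted p = 0.0502), and within the larger library set (-0.34, adjusted p = 0.0562) and the smaller one (-0.30, adjusted p = 0.249), in which WT is a single library assumed to vary like the others. The LBD11-OE call held in 40 of 41 alternatives, the exception being the smaller set (-0.33, adjusted p = 0.155). Of the single lines, LBD11-OE-1 kept its call in all 26 alternatives. LBD11-OE-14 lost it without WT replicate 4 (0.0510), WT replicate 5 (0.0632), or its own replicate 1 (0.135) or 2 (0.109). LBD11-OE-2 lost it without its replicate 1 (0.0830) or 2 (0.0702). LBD4-OE-17 lost it without WT replicate 4 (0.0581), WT replicate 5 (0.0727), or its own replicate 1 (0.132) or 2 (0.277), all edgeR adjusted p-values.

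Potri.003G132000, the other MYB103-type gene, lies on the reverse strand of chromosome 3 at 15016195 to 15018453. Neither construct passed the test against WT, and within LBD11-OE the lines stood apart. LBD11-OE-1 measured 52.4, 47.7 and 42.1 CPM, LBD11-OE-2 measured 54.7, 62.7 and 58.4 CPM, and LBD11-OE-14 measured 69.3, 90.8 and 73.8 CPM. The WT libraries measured 68.1, 69.4, 71.0, 63.6 and 73.4 CPM. All libraries of LBD11-OE-1 and LBD11-OE-2 were below the lowest WT library, and those of LBD11-OE-14 overlapped WT and included the highest of all 22. The share of all genes for which a single line lies wholly below WT was not computed.

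Averaged over the lines, Potri.003G132000 stood at 61.3 ± 14.9 CPM in LBD11-OE, against 69.1 ± 3.63 CPM in WT, or a log2 change of -0.17 ± 0.13 (edgeR adjusted p = 0.327). The 3 LBD11-OE lines differed jointly (edgeR adjusted p = 0.00686), as they did for 1.36% of all genes tested, and this was 1 of the 6 genes. LBD11-OE-14 was above LBD11-OE-1 by 0.72 ± 0.13 on the log2 scale (edgeR adjusted p = 0.00227). It was above LBD11-OE-2 by 0.41 ± 0.13, which did not pass (edgeR adjusted p = 0.183). Against WT, the gene was lower in LBD11-OE-1 (-0.55 ± 0.11, edgeR adjusted p = 0.00178). The value was -0.24 in LBD11-OE-2 (edgeR adjusted p = 0.149) and 0.17 in LBD11-OE-14 (edgeR adjusted p = 0.267).

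The joint difference among the LBD11-OE lines was lost without LBD11-OE-14 replicate 2, the library at 90.8 CPM (edgeR adjusted p = 0.101). With line LBD11-OE-14, the highest, left out, the log2 fold change of Potri.003G132000 in LBD11-OE against WT was -0.38 (edgeR adjusted p = 0.00757), and against LBD4-OE it was -0.33 (edgeR adjusted p = 0.0178). Each of these comparisons was called in 1 of 41 alternatives. Over them the value against WT ran from -0.38 to -0.016. With line LBD11-OE-1, the lowest, left out, the value against LBD4-OE was 0.031 (edgeR adjusted p = 0.883). In LBD4-OE the gene ran from 53.2 to 78.0 CPM with a median of 69.3 CPM and enclosed the WT range. The log2 fold change of LBD4-OE against WT was -0.05 with a 95% interval of -0.30 to 0.21 (edgeR adjusted p = 0.881). The LBD4-OE lines did not pass the joint test (edgeR adjusted p = 0.844), and of all genes 0.194% differed among these lines.

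Of the MYB46/83 type, both genes on chromosome 9 were lower in LBD11-OE, and both genes on chromosome 1 had values above WT that did not pass the test. Potri.009G061500 (listed as MYB20) lies on the reverse strand of chromosome 9 at 6343985 to 6346774. It measured 1.997, 3.10 and 3.74 CPM in LBD11-OE-1, 3.17, 1.63 and 2.12 CPM in LBD11-OE-2, and 2.51, 2.49 and 3.05 CPM in LBD11-OE-14. LBD4-OE ran from 2.07 to 4.47 CPM with a median of 3.05 CPM. The WT libraries measured 3.44, 4.01, 3.9997, 4.28 and 4.23 CPM. One LBD11-OE library, LBD11-OE-1 replicate 3 at 3.74 CPM, lay within the WT range and the other 8 lay below it.

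The mean of Potri.009G061500 was 2.64 ± 0.673 CPM in LBD11-OE, against 3.99 ± 0.333 CPM in WT, or a log2 change of -0.59 ± 0.17 (edgeR adjusted p = 0.0103). LBD4-OE averaged 3.11 ± 0.727 CPM, or a log2 change of -0.36 ± 0.18 against WT that did not pass (edgeR adjusted p = 0.235). The difference between the constructs was -0.23 for LBD11-OE against LBD4-OE (edgeR adjusted p = 0.343). Of the single lines LBD11-OE-2 passed against WT (-0.78 ± 0.23, edgeR adjusted p = 0.0247). That call was lost without its replicate 2 (adjusted p = 0.164) or 3 (adjusted p = 0.0737). All other lines had negative values, from -0.57 in LBD11-OE-14 to -0.16 in LBD4-OE-17. The LBD11-OE call was lost within the larger library set (-0.50, edgeR adjusted p = 0.0559) and the smaller one (-0.81, edgeR adjusted p = 0.161).

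Potri.009G053900 (listed as MYB21) lies on the reverse strand of chromosome 9 at 5801882 to 5804890, 0.542 Mb from Potri.009G061500. It measured 19.5, 13.2 and 12.3 CPM in LBD11-OE-1, 13.5, 15.99 and 14.8 CPM in LBD11-OE-2, and 12.7, 16.99 and 19.5 CPM in LBD11-OE-14. LBD4-OE ran from 15.7 to 20.3 CPM with a median of 18.9 CPM, and the WT libraries measured 20.5, 19.1, 18.97, 16.9 and 18.8 CPM. The LBD11-OE libraries overlapped both other groups, since LBD11-OE-1 replicate 1 and LBD11-OE-14 replicate 3 stood at 19.5 CPM.

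The mean of Potri.009G053900 was 15.4 ± 2.79 CPM in LBD11-OE, against 18.9 ± 1.29 CPM in WT, or a log2 change of -0.29 ± 0.10 (edgeR adjusted p = 0.0282). It was also lower in LBD11-OE than in LBD4-OE, which averaged 18.5 ± 1.77 CPM, with a log2 change of -0.27 ± 0.09 (edgeR adjusted p = 0.0395). LBD4-OE against WT gave -0.03 with a 95% interval of -0.23 to 0.18 (edgeR adjusted p = 0.910). None of the 6 lines passed alone against WT, with values from -0.36 in LBD11-OE-2 to 0.03 in LBD4-OE-17. Without LBD11-OE-1 replicate 1, line LBD11-OE-1 passed (-0.57, edgeR adjusted p = 0.0105), as did LBD11-OE-2 (-0.36, adjusted p = 0.0443).

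Of the calls between constructs or against WT, these 2 held under the fewest alternatives. Against WT, the LBD11-OE call of Potri.009G053900 was lost when any 1 of 7 libraries was left out, which were WT replicates 1 (edgeR adjusted p = 0.0767), 2 (0.0513) and 5 (0.0507), LBD11-OE-1 replicates 2 (0.0512) and 3 (0.0505), LBD11-OE-2 replicate 1 (0.0506) and LBD11-OE-14 replicate 1 (0.0531). It was also lost without line LBD11-OE-2 (edgeR adjusted p = 0.0866) and with lines as a random block, which allows for libraries sharing a line (-0.31, limma voom adjusted p = 0.0515). Within the larger library set it was -0.26 (edgeR adjusted p = 0.126) and within the smaller one -0.39 (edgeR adjusted p = 0.161). Against LBD4-OE the call held in 20 of 41 alternatives, over which the adjusted p ran from 0.0123 to 0.345. It was lost without replicates 2 or 3 of LBD11-OE-1, any replicate of LBD11-OE-2, replicate 1 of LBD11-OE-14, replicate 3 of LBD4-OE-11, replicate 1 of LBD4-OE-14, or replicates 1 or 3 of LBD4-OE-17, at adjusted p-values up to 0.0871, and with lines as a random block (limma voom adjusted p = 0.0570).

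Potri.001G258700 (listed as MYB2) lies on the reverse strand of chromosome 1 at 27415081 to 27417588. It measured 5.67, 4.48 and 2.81 CPM in LBD11-OE-1, 5.05, 5.11 and 3.39 CPM in LBD11-OE-2, and 5.90, 5.33 and 5.33 CPM in LBD11-OE-14. LBD4-OE ran from 2.96 to 5.43 CPM with a median of 4.32 CPM. The WT libraries measured 4.37, 4.77, 2.65, 4.91 and 4.402 CPM, of which WT replicate 3 was the lowest of all 22. The 3 libraries of LBD11-OE-14 were above all WT libraries, and the other lines overlapped WT. The share of all genes for which a single line lies wholly above WT was not computed.

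The mean of Potri.001G258700 was 4.78 ± 1.05 CPM in LBD11-OE, 4.17 ± 0.880 CPM in LBD4-OE and 4.22 ± 0.906 CPM in WT. The log2 fold change was 0.18 for LBD11-OE against WT, with a 95% interval of -0.16 to 0.52 (edgeR adjusted p = 0.466). For LBD4-OE against WT it was -0.02, with an interval of -0.37 to 0.33 (edgeR adjusted p = 0.960). In LBD11-OE-14 it was 0.38 ± 0.22 against WT (edgeR adjusted p = 0.212).

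Potri.001G267300 (listed as MYB3) lies on the reverse strand of chromosome 1 at 28216114 to 28219495, 0.801 Mb from Potri.001G258700. It measured 3.07, 2.17 and 1.87 CPM in LBD11-OE-1, 2.41, 2.13 and 2.12 CPM in LBD11-OE-2, and 2.39, 3.49 and 2.40 CPM in LBD11-OE-14. In LBD4-OE it measured 1.41, 0.922 and 1.27 CPM in line 11, 2.57 and 2.25 CPM in line 14, and 2.18, 1.97 and 1.14 CPM in line 17. The WT libraries measured 1.94, 1.87, 1.38, 1.42 and 2.52 CPM. LBD11-OE and WT overlapped, and within LBD4-OE line 11 lay below line 14 in all libraries. The share of all genes for which these lines separate was not computed. Line 11 is in the smaller library set and line 14 in the larger, so line and set cannot be told apart here.

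The mean of Potri.001G267300 was 2.45 ± 0.512 CPM in LBD11-OE, 1.71 ± 0.605 CPM in LBD4-OE and 1.83 ± 0.467 CPM in WT. The log2 change of LBD11-OE was 0.42 ± 0.22 against WT (edgeR adjusted p = 0.144) and 0.51 ± 0.19 against LBD4-OE (edgeR adjusted p = 0.0653), neither past the threshold. DESeq2 called it higher in LBD11-OE than in LBD4-OE (adjusted p = 0.0418), as did limma voom (adjusted p = 0.0407) and edgeR without LBD4-OE-14 replicate 1 (adjusted p = 0.0286) or replicate 2 (adjusted p = 0.0494). In all, 8 of 41 alternatives called it, over which the adjusted p ran from 0.0145 to 0.401. The limma voom fit with lines as a random block did not call it. The LBD4-OE lines did not pass the joint test (edgeR unadjusted p = 0.0132, adjusted p = 0.379). LBD4-OE-14 stood above LBD4-OE-11 by 1.02 ± 0.32 on the log2 scale (edgeR adjusted p = 0.333).

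Each chromosome 1 gene of the MYB46/83 type was then set against its chromosome 9 partner in the duplicate pairs given above, which were not checked here. The 2 MYB103-type genes were set against each other. Each pair was taken as the log2 ratio of its counts in each library, in which library size cancels. These tests were added after the values above were known, and 9 comparisons were made. Libraries were permuted freely, so libraries sharing a line counted as separate, and no form of these tests by line was run. Near-identical copies can share reads, and how such reads were assigned is not stated. In LBD11-OE the mean ratio was shifted toward the chromosome 1 gene in both MYB46/83-type pairs, relative to LBD4-OE by the test and relative to WT by the test in 1 pair. The ratio of Potri.001G267300 to Potri.009G061500 averaged -0.09 ± 0.530 in LBD11-OE, against -1.16 ± 0.394 in WT, a difference of 1.07 (exact permutation test, two-sided, p = 0.00300, adjusted p = 0.0121). It averaged -0.91 ± 0.601 in LBD4-OE, so that LBD11-OE exceeded LBD4-OE by 0.82 (exact permutation p = 0.0118, adjusted p = 0.0267), and LBD4-OE differed from WT by 0.25 (exact permutation p = 0.457).

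The ratio of Potri.001G258700 to Potri.009G053900 averaged -1.70 ± 0.327 in LBD11-OE, -2.17 ± 0.231 in LBD4-OE and -2.19 ± 0.397 in WT. LBD11-OE exceeded LBD4-OE by 0.47 (exact permutation p = 0.00403, adjusted p = 0.0121). Against WT the difference was 0.49 and missed the threshold after adjustment (exact permutation p = 0.0310, adjusted p = 0.0557). Without LBD11-OE-1 replicate 3, LBD11-OE-2 replicate 3 or WT replicate 4 it passed (adjusted exact permutation p of 0.0303, 0.0336 and 0.0352 for these 3). LBD4-OE differed from WT by 0.02 (exact permutation p = 0.911).

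In the MYB103-type pair the difference from WT passed in LBD4-OE. The ratio of Potri.001G099800 to Potri.003G132000 ran from -1.30 to -1.02 in LBD4-OE, against -0.95 to -0.74 in WT, so the groups did not overlap. Potri.001G099800 alone also lay below WT in all LBD4-OE libraries, and the share of other gene pairs that separate in this way was not computed. The mean ratios were -1.16 ± 0.105 in LBD4-OE and -0.88 ± 0.0817 in WT, a difference of -0.28 (exact permutation p = 0.00155, adjusted p = 0.0121). LBD11-OE ran from -1.58 to -0.63, with a mean difference from WT of -0.17 (exact permutation p = 0.180, adjusted p = 0.270); without LBD11-OE-1 replicate 3 it was -0.22 and passed (adjusted exact permutation p = 0.0303). The ratio of Potri.001G267300 to Potri.009G061500 between the constructs failed without LBD11-OE-1 replicate 1 (adjusted exact permutation p = 0.05), LBD4-OE-11 replicate 2 (0.0547) or LBD4-OE-17 replicate 3 (0.0543). None of the 4 ratio differences that passed over all libraries did so within the 15 libraries of the larger set, where their sizes were 0.93, 0.57, 0.40 and -0.30 with adjusted exact permutation p-values of 0.129, 0.300, 0.156 and 0.129. Against WT, so few libraries allow few permutations, and even groups without overlap can miss the threshold there. The MYB103-type ratios of LBD4-OE and WT still did not overlap in that set. These failures therefore do not show that the differences depend on the library set.

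**Figure D3:**
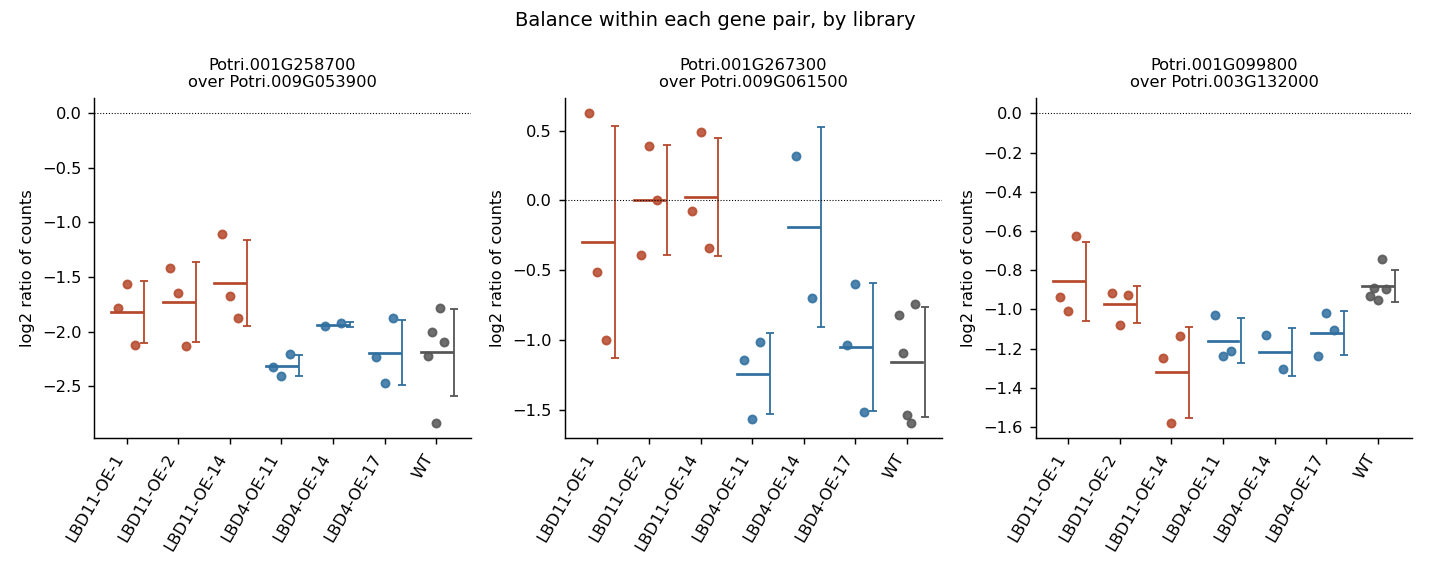
Log2 ratio of the counts of 2 genes in each library, by line, with the mean (bar) and SD of each line and of WT; the dotted line at 0 marks equal counts. For Potri.001G267300 over Potri.009G061500 the LBD11-OE libraries centre near 0 and the WT libraries near -1.16, and for Potri.001G099800 over Potri.003G132000 all LBD4-OE libraries lie below all WT libraries.

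Across the 22 libraries the 2 MYB103-type genes varied together. Of the 15 gene pairs, Potri.001G099800 with Potri.003G132000 was the one past the threshold (Pearson r = 0.61, permutation p = 0.00238, adjusted p = 0.0357; Spearman rho = 0.69, adjusted p = 0.00885). Without the 2 libraries farthest from the median of Potri.001G099800 r was 0.65. It was 0.59 within the larger library set and 0.73 within the smaller one, and no pair passed within either set or without both libraries that stood away on component 2. With line means removed, r was 0.55 and did not pass (permutation, adjusted p = 0.263), and no pair passed in that form. Potri.001G258700 with Potri.001G267300, the chromosome 1 genes of the MYB46/83 type, gave r = 0.50 (permutation, adjusted p = 0.0695).

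The wall genes that such MYB factors are known to activate, and the NAC factors above them, were counted from lists by identifier. These lists were also chosen with earlier results of these data known, so the counts are descriptions. In LBD11-OE against WT, 3 of 5 secondary wall cellulose synthases, 9 of 22 lignin monomer enzymes and 2 of 5 xylan synthases were higher and none was lower (edgeR adjusted p under 0.05), with median log2 fold changes of 0.35, 0.14 and 0.21. Over all genes tested the median was 0.00, with 16.1% higher and 16.3% lower. By summed CPM of these lists, LBD11-OE-14 stood above the other LBD11-OE lines. Cellulose synthases ran from 6596 to 7101 in LBD11-OE-14, 4580 to 5207 in the other LBD11-OE lines and 3539 to 4845 in WT. In the same order, lignin enzymes ran from 21641 to 24406, 17191 to 20531 and 15867 to 19761. Xylan synthases ran from 1407 to 1655, 1111 to 1295 and 932 to 1083. Of the 11 tested of 12 wood NAC master switches 2 were higher (18.2%, near the share over all genes) and none lower, with a median of 0.01. Among the cellulose synthases the values ran from -0.04 for Potri.004G059600 (edgeR adjusted p = 0.868) to 0.51 for Potri.018G103900 (adjusted p = 0.00314). Among the lignin enzymes they ran from -0.21 for Potri.001G036900 (edgeR adjusted p = 0.153) to 0.76 for Potri.016G091100 (adjusted p = 0.000194). Among the xylan synthases they ran from -0.08 for Potri.011G132600 (edgeR adjusted p = 0.698) to 0.64 for Potri.001G416800 (adjusted p = 0.000243). The highest NAC value was 1.65 for Potri.013G113100 (edgeR adjusted p = 0.00473) and the lowest was -0.37 for Potri.012G126500 (edgeR adjusted p = 0.0609), which limma voom called lower.

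In LBD4-OE against WT edgeR called no gene of these lists, and the median log2 change was 0.14 for cellulose synthases, 0.04 for xylan synthases, -0.01 for lignin enzymes and -0.09 for NAC genes. At an unadjusted p under 0.05 there were 2 NAC genes, with log2 changes of -0.26 and 0.49, and 1 cellulose synthase, at 0.27. There were also 3 lignin enzymes, at -0.21, -0.33 and 0.19. The share of all genes at that threshold was not computed. DESeq2 called 1 NAC gene higher and 2 lignin enzymes lower, and limma voom called none. Between the constructs, 2 of 5 cellulose synthases, 11 of 22 lignin enzymes, 1 of 5 xylan synthases and 1 of 11 NAC genes were higher in LBD11-OE, against 8.08% of all genes tested, so the NAC count (9.09%) was near that share. Circadian clock genes, a measure of sample state, moved with the LBD11-OE group: both listed genes were lower than in WT, with summed levels of 152 to 213 CPM in LBD11-OE, 197 to 303 CPM in LBD4-OE and 237 to 297 CPM in WT, and their part in the MYB differences was not tested.

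The level of each MYB gene was also set against the summed level of each list, library by library. Of 24 such relations, 6 passed by Pearson r over all libraries and 2 passed with line means removed, both by permutation with Benjamini-Hochberg adjustment. Potri.001G258700 varied with the cellulose synthases in both forms (r = 0.71, rho = 0.75, permutation p = 0.000270, adjusted p = 0.00216; with line means removed r = 0.80, adjusted p = 0.00552). Without the 2 libraries farthest from its median r was 0.68, and within the larger and smaller library sets it was 0.59 and 0.91. Its relations with the xylan synthases (r = 0.47, permutation, adjusted p = 0.0871), the NAC genes (r = 0.45, adjusted p = 0.0933) and the lignin enzymes (r = 0.25, adjusted p = 0.348) did not pass, and with line means removed that with the lignin enzymes was -0.36. Potri.001G267300 with the NAC genes passed with line means removed alone (r = 0.75, permutation, adjusted p = 0.00888), and over all libraries r was 0.43 (permutation, adjusted p = 0.101). It was 0.31 there without the 2 libraries farthest from its median.

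The other relations past the threshold over all libraries did not pass with line means removed. They were Potri.001G267300 with the xylan synthases (r = 0.71, rho = 0.68, permutation, adjusted p = 0.00216), the cellulose synthases (r = 0.60, rho = 0.64, adjusted p = 0.0156) and the lignin enzymes (r = 0.60, rho = 0.52, adjusted p = 0.0156), which stood at 0.34, 0.23 and 0.02 with line means removed, and the NAC genes with Potri.003G132000 (r = 0.74, rho = 0.53, adjusted p = 0.00216) and Potri.001G099800 (r = 0.53, rho = 0.62, adjusted p = 0.0429). The relation of Potri.003G132000 with the NAC genes was 0.84 within the larger library set and -0.05 within the smaller one, and 0.54 without the 2 libraries farthest from its median. The 2 chromosome 9 genes, Potri.009G061500 and Potri.009G053900, passed with no list, with r from -0.44 to -0.05 for Potri.009G061500 and from -0.36 with the lignin enzymes to 0.47 with the NAC genes for Potri.009G053900. With line means removed the last was 0.67 and did not pass (permutation, adjusted p = 0.259).

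**Figure D4:**
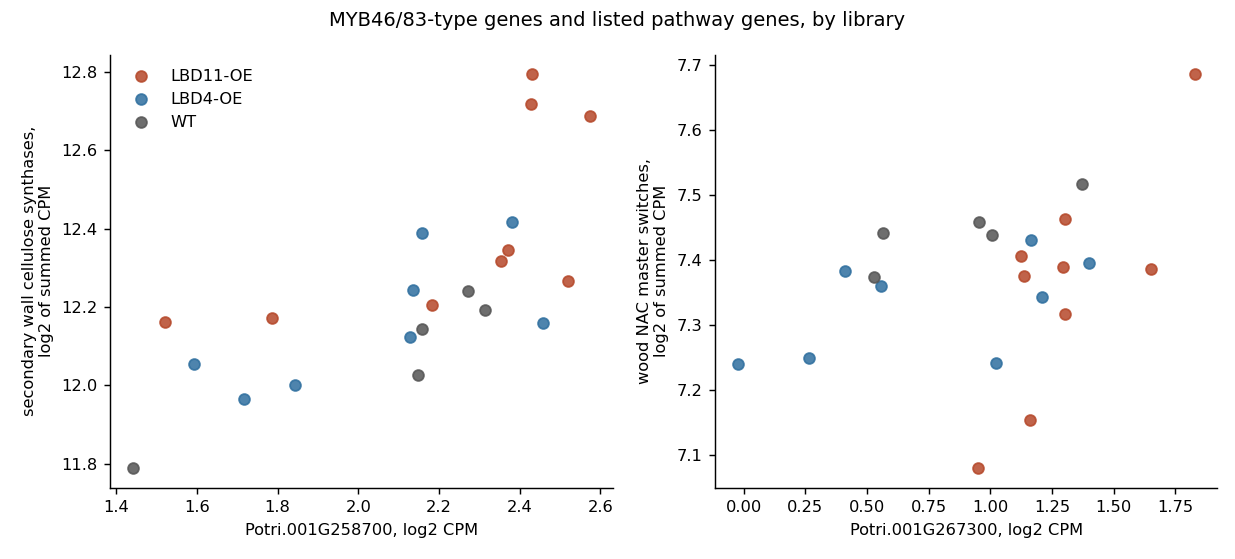
Log2 of the summed CPM of a gene list against log2 CPM of a MYB46/83-type gene, 1 point per library: secondary wall cellulose synthases against Potri.001G258700 (left) and wood NAC master switches against Potri.001G267300 (right). Libraries with more Potri.001G258700 had more cellulose synthase RNA (r = 0.71 over 22 libraries), and on the right r is 0.43.

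The genes most alike to each of the 6 were taken as the 2 with the highest Pearson r of log2 CPM over the 22 libraries, among genes of at least 5 CPM on average. These r values are descriptions, since the genes were picked for them out of 18254 or 18253 candidates. For the MYB103-type genes they were Potri.010G012100 (r = 0.86) and Potri.002G143400 (0.86) for Potri.001G099800, and Potri.018G103500 (0.87) and Potri.010G076200 (0.86) for Potri.003G132000. For Potri.001G258700 they were Potri.006G084000 (0.81) and Potri.007G091200 (0.79), and for Potri.001G267300 they were Potri.004G211900 (0.81) and Potri.012G006400 (0.81), the last of which is on the list of lignin enzymes. For Potri.009G061500 they were Potri.006G195900 (0.81) and Potri.008G174400 (0.79), and for Potri.009G053900 they were Potri.001G262000 (0.78) and Potri.014G103600 (0.76). No gene was named for more than 1 of the 6, and the 99th percentile of r among candidates was 0.58 to 0.66.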

How the data were processed

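RNA was extracted from stem internodes, enriched for poly(A) RNA and sequenced from both ends of fragments, per the labels' protocols. The submitters' processing notes name Trimmomatic, HISAT2, Cufflinks, HTSeq and MultiQC; the version of each, the build and the setting for strand are not given in the sources used here. Raw HTSeq counts per gene were deposited for each library, on Potri identifiers with the suffix v4.1, without normalization. Because the gene models come from another poplar species, alleles and near-identical copies that align badly can lose reads. The deposited gene length (another unit, in bases) equals the span from start to end.

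Group, line and replicate number were read from sample titles. The last LBD11-OE line is 14 in the titles and 3 in the genotype label, and the title was used. Counts were tested with edgeR 4.0.16 in R 4.3.3: TMM scaling, the default filter (count 10, total 15), robust quasi-likelihood F tests and Benjamini-Hochberg adjustment over all genes, at a threshold of 0.05. Constructs were compared in a fit of 3 group means (25626 genes) and lines in a fit of 7 (26271 genes). SE was the size of the log2 fold change over the root of F, and 95% intervals are 1.96 SE to each side. CPM used TMM-scaled library sizes, and log2 CPM a prior count of 2. Correlations used 100000 permutations. Alternatives were DESeq2 1.42.0, limma 3.58.1 (voom, also with lines as a random block), RLE and upper quartile scaling, no filter, equal weight of lines, only the groups compared, the replicate number as a block, and leaving out libraries and lines. The library sets and the tests of count ratios were chosen after seeing the data. Replicates of a line or of WT differed by more than sampling noise in all 26 library pairs (chi-square per degree of freedom at least 5.78), so none was merged.

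The 6 genes and the lists were chosen with earlier results of these data known. All 6 genes were described in each comparison. The genes most alike to each and the highest and lowest gene of each list in LBD11-OE were named by rule. List membership by identifier was not checked against an annotation, and no sequence was used.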

Additional observations from a re-analysis of the deposited data

Results flagged for a closer look

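Potri.001G258700 in WT replicate 3 stood at 2.65 CPM, with the nearest WT library at 4.37 CPM, a gap of 0.760 of the WT range against Dixon's 95% limit of 0.71. It was 1 library apart among 18 groups examined, and chance gives about 1 in 20. That library also stood apart on principal component 2.

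Potri.003G132000 differed among the LBD11-OE lines by the joint test (edgeR adjusted p = 0.00686), with 77.98 ± 11.3 CPM in LBD11-OE-14, 58.6 ± 3.98 CPM in LBD11-OE-2 and 47.4 ± 5.14 CPM in LBD11-OE-1 (SD, n = 3 each). Without LBD11-OE-14 replicate 2 the adjusted p was 0.101.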

How the results depend on the processing

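Depth limits Potri.001G267300, with 29 to 108 counts per library, and Potri.009G061500, with 48 to 170. Of 1674 values of the 6 genes under alternatives, 1569 kept direction and side of the threshold, 56 lost a call, 15 gained one, and 34 changed sign, of which 0 had been called. The largest value after such a change was 0.42 (adjusted p = 0.497). The causes of the changes below were not tested, and each library set holds fewer libraries than the series.

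Counts of the 6 genes called lower in LBD11-OE against WT were 1 within the larger library set and 0 within the smaller one, against 3 reported. Those called lower in LBD4-OE against WT were 0 with lines as a random block and within each library set, against 1 reported. Those called lower in LBD11-OE against LBD4-OE, 1 as reported, were 0 with lines as a random block, with equal weight of lines, with only the 2 groups compared, within each library set, and without LBD11-OE-1, LBD11-OE-2, LBD4-OE-11, LBD4-OE-14 or LBD4-OE-17, and 2 without LBD11-OE-14. In that comparison 1 gene, Potri.001G267300, was higher with DESeq2, limma voom, equal weight of lines, without LBD4-OE-14 and with library set as a term. With that term it was also the 1 gene higher against WT (0.50, adjusted p = 0.0494). DESeq2 called 1 gene lower in LBD4-OE-11, Potri.001G099800, against 0 by edgeR. Of the lists, DESeq2 called 1 NAC gene higher and 2 lignin enzymes lower in LBD4-OE, against 0 each, and limma voom called 1 NAC gene lower in LBD11-OE, against 0. Over all genes tested, those called lower fell in number in some of these settings and rose in others. In LBD11-OE against LBD4-OE they were 2427 with equal weight of lines and 2377 with only the 2 groups compared, against 2276 reported. They fell with lines as a random block and within the larger library set. In LBD4-OE against WT they were 403 as reported, 56 with lines as a random block and 192 within the larger library set. In LBD11-OE against WT they were 4166, 3143 and 3581, and in LBD11-OE against LBD4-OE 2276, 1652 and 1862, in the same order.

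Replicate numbers did not pair the samples: 8 of 57 same-numbered library pairs had deviations that correlated above 0.1. With the replicate block, LBD11-OE against LBD4-OE had 1 gene higher (Potri.001G267300, adjusted p = 0.0312) and 0 lower, LBD4-OE against WT had 0 lower (Potri.001G099800 at -0.29, adjusted p = 0.0908), and Potri.009G061500 in LBD11-OE was -0.53 (adjusted p = 0.0816). Genes called lower under the block were 1 in LBD11-OE-2, 0 in LBD11-OE-14 and 0 in LBD4-OE-17, and Potri.003G132000 still differed among the LBD11-OE lines (adjusted p = 0.0261). Signs turned under the block for Potri.001G258700 in LBD4-OE (0.080) and, in LBD4-OE-17, for Potri.001G267300 (0.0054) and Potri.009G053900 (-0.020).

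Other turned signs were all of uncalled values. Without LBD11-OE-1, Potri.001G099800 was 0.030 and Potri.003G132000 0.031 in LBD11-OE against LBD4-OE. In LBD4-OE against WT without LBD4-OE-11, Potri.001G258700 was 0.086, Potri.001G267300 0.14 and Potri.009G053900 0.0039. Within the larger set Potri.001G267300 was 0.064 and Potri.009G053900 0.0074 there, and Potri.001G258700 was 0.42 within the smaller set and 0.038 with library set as a term. With limma voom Potri.001G258700 was -0.013 in LBD11-OE-1 and -0.013 in LBD4-OE-17.

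The log2 ratio of Potri.001G258700 to Potri.009G053900 within the larger set was -0.063 in LBD4-OE against WT, and between the constructs it was 0.40, which no longer passed. Nor did that of Potri.001G267300 to Potri.009G061500 there, at 0.57 for LBD11-OE against LBD4-OE and 0.93 in the comparison of LBD11-OE with WT, or that of Potri.001G099800 to Potri.003G132000, at -0.30 for LBD4-OE against WT. Against WT the few permutations of so few libraries limit how low p can go in that set. Pairs of the 6 genes that varied together were 0, against 1, without both libraries apart on component 2 and within each library set, and relations with lists were 2, against 6, with line means removed.

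Leaving out 1 library at a time, genes called lower numbered 0 to 1 in LBD4-OE against WT, LBD11-OE against LBD4-OE, LBD11-OE-14 and LBD4-OE-17, and 0 to 3 in LBD11-OE-2. Genes called higher numbered 0 to 1 in LBD11-OE against LBD4-OE and in LBD11-OE-14, and genes that differed among LBD11-OE lines 0 to 1. Of the log2 fold changes in LBD4-OE against WT, Potri.001G258700 ran from -0.15 to 0.037, Potri.001G267300 from -0.19 to 0.051 and Potri.009G053900 from -0.065 to 0.0039. Against WT in single lines, Potri.001G258700 ran from -0.22 to 0.26 in LBD11-OE-1, from -0.028 to 0.26 in LBD11-OE-2 and from -0.17 to 0.20 in LBD4-OE-17. Potri.001G267300 ran from -0.22 to 0.18 in LBD4-OE-17. Potri.003G132000 ran from -0.15 to 0.10 in LBD4-OE-11 and from -0.0063 to 0.068 in LBD4-OE-14. Potri.009G053900 ran from -0.18 to 0.078 in LBD4-OE-14 and from -0.0048 to 0.092 in LBD4-OE-17. The log2 ratio of Potri.001G258700 to Potri.009G053900 ran from 0.33 to 0.59 in LBD11-OE against WT and, in the comparison of LBD4-OE with WT, from -0.15 to 0.12, that of Potri.001G267300 to Potri.009G061500 from 0.72 to 0.99 in LBD11-OE against LBD4-OE, and that of Potri.001G099800 to Potri.003G132000 from -0.22 to -0.10 in LBD11-OE against WT.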
